A study of Mus musculus with 6 samples.

Results

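Adipocyte cultures grown from inguinal white fat (iWAT), a fat pad under the skin of the groin, were examined for the genes in which they stood outside the range set by brown fat (BAT) and epididymal white fat (eWAT), a visceral depot. The iWAT cultures made up 2 of the 6 libraries of the series, beside 2 from BAT and 2 from eWAT. Each of 11732 tested genes was placed by its mean log2 CPM (read counts scaled to library size with TMM factors) in the 3 depots. In 3053 genes (26%) the iWAT mean lay above both other depots, in 2631 (22.4%) below both and in 6048 (51.6%) between them. The test set iWAT against the midpoint of the BAT and eWAT means, with the replicate as a block. A gene was called outside both depots where iWAT differed from BAT and from eWAT in the same direction, which held for 81 genes above and 11 below.

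All cultures came from male NMRI mice 4 to 5 weeks old, and the labels name no genetic change and no treatment that differed between the groups. Collagenase freed the stromal-vascular cells, which include the adipocyte precursors. They differentiated in DMEM that held 1 µM rosiglitazone (an activator of the adipogenic receptor PPARγ), 30 nM insulin, newborn calf serum at 10%, ascorbate, HEPES, glutamine, penicillin and streptomycin. Cells of the BAT group were pooled from interscapular, cervical and axillary pads, cultures were used only where over 50% of cells had differentiated, and harvest was 8 days after plating per the labels, while the column names of the counts carry a tag 1 day earlier. The libraries held from 2889038 to 4807449 counted reads and detected from 14149 to 15660 genes, and 3 reads, the limit set by a zero count, corresponded to 0.634 to 1.15 CPM. The labels do not say that the replicates were separate animals or cultures, so each p-value reflects only how much these samples varied, and that variation could be technical.

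Fat depots arise from different regions of the embryo, and cultured adipocyte precursors keep part of the regional expression of Hox and other patterning genes of their origin. Within a Hox cluster, genes of low paralogue number are used toward the head and genes of high number toward the tail and hind limb. Inguinal fat is also known for adipocytes that can turn on brown-type genes, so it is often described as lying between brown fat and visceral white fat.

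The 4 regulators chosen as markers of the iWAT cultures, all known for patterning of the limb or body axis, were higher there than in the other depots. Hoxc10, a posterior homeobox gene, had 21.6 and 17.8 CPM in iWAT, 0 and 0 in BAT and 0 and 0.569 in eWAT. With 161 reads in iWAT against 0 in BAT and 2 in eWAT, its level was at least 48.5-fold higher than in BAT, taking 3 reads over the depot as the limit of a zero count, and 77.3-fold higher than in eWAT (exact 95% binomial interval 21 to 644). Hoxa10, a posterior gene of the HoxA cluster, had 33.7 and 40.2 CPM in iWAT, 0.423 and 0 in BAT and 0.699 and 2.84 in eWAT, a ratio to BAT of 135 (interval 37.2 to 1120, from 2 reads in BAT). The lowest iWAT value lay far above the highest value of the other 4 libraries for both genes. These intervals cover counting error alone. Irx1, an Iroquois homeobox gene, had 16.6 and 28.9 CPM in iWAT, 1.90 and 1.91 in BAT and 2.33 and 1.99 in eWAT, a difference from the midpoint of 3.39 ± 0.30 (log2, SE; adjusted p = 0.00255 by the edgeR quasi-likelihood test with Benjamini-Hochberg adjustment, as for every adjusted p below unless stated). Shox2, a homeobox gene of the proximal limb, had 14.7 and 15.3 CPM in iWAT, 4.86 and 1.91 in BAT and 0.233 and 0.284 in eWAT. It was intermediate in BAT and nearly absent in eWAT, where 2 reads gave a ratio of 58.6 (interval 15.9 to 489), and its libraries in iWAT exceeded all 4 others. All 4 were called against both depots, beside 0.69% of all tested genes, which were called above both. The adjusted p of the midpoint test was 0.00361 for Hoxc10, 0.00148 for Hoxa10 and 0.00519 for Shox2. In that test Hoxa10, Irx1 and Shox2 passed under all 12 alternative analyses, and Hoxc10 under 11, with an adjusted p of 0.124 by DESeq2. Here and below, passing or losing a call under an alternative refers to the midpoint test alone. The call above both depots held for 0 of the 4 markers without the replicate block and for 3 by DESeq2. In the mouse build mm9 the transcripts counted span chr15:102797227-102802328 for Hoxc10, chr6:52181196-52190853 for Hoxa10, chr13:72095680-72101171 for Irx1 and chr3:66777191-66785693 for Shox2.

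The Hox genes were then examined as a family. Of 16 Hox genes of paralogue groups 9 to 13, 4 had enough reads to be tested. All 4 were higher in iWAT than the midpoint, where 2.09% of all tested genes were. Hoxa10 and Hoxc10 of these are the markers already described, so the count adds Hoxa9 and Hoxc9. These markers had enough reads only through their iWAT libraries, so the count is partly set by the filter on low counts. With no filter, 4 of 15 were called higher and 0 lower. Untested members went both ways. Hoxd9 had 0 and 5 reads in iWAT, 8 and 8 in BAT and 2 and 6 in eWAT. Hoxc11 had 4 and 3 reads in iWAT and 0 in the other depots. Hoxa9, next to Hoxa10 on the chromosome, had 34.4 and 52.04 CPM in iWAT, 2.96 and 3.44 in BAT and 3.96 and 5.12 in eWAT (midpoint difference 3.46 ± 0.20, adjusted p = 0.000541). Hoxc9 was not outside both depots, since eWAT reached a similar level (12.03 and 11.3 CPM in iWAT, 1.06 and 1.91 in BAT and 9.32 and 8.82 in eWAT). The call for Hoxc9 (midpoint difference 1.71, adjusted p = 0.0312) was lost without either eWAT or either iWAT replicate (adjusted p from 0.0551 to 0.27), by DESeq2 (0.078) and without the replicate block (0.122). Of the 16 tested Hox genes of groups 1 to 8, 11 had their lowest mean in iWAT and 5 lay between the depots. Of these 11, 1 was called, Hoxa5 (2.41 and 3.02 CPM in iWAT, 30.9 and 45.5 in BAT and 20.5 and 21.6 in eWAT), which fell by 3.37 on the log2 scale against the midpoint (SE 0.26, adjusted p = 0.00159). So the 2 HoxA genes called highest in iWAT and the HoxA gene called lowest there lie in 1 cluster, with Hoxa5 at chr6:52151753-52154586 and Hoxa9 at chr6:52173096-52177369. Hoxa5 and Hoxa9 passed under all 12 alternatives.

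Of 43 regulators of limb and body wall patterning, 19 were tested, of which 7 were higher in iWAT than the midpoint, 5 of them above both depots, and 0 were lower. The median midpoint difference over the 19 was 1.35, against -0.01 over all tested genes. The list holds the markers Irx1 and Shox2, and without them 5 of 17 were higher and 3 above both, with a median of 1.29. Irx1, Irx2, Shox2 and Tbx5 had enough reads to be tested only through iWAT. The counts and medians are therefore partly set by the filter on low counts. With no filter, 12 of 40 were called higher and 0 lower. Untested members went both ways. Alx1 had 9 and 9 reads in eWAT and 0 elsewhere, and Pitx1 3 and 6 in iWAT and 0 elsewhere. Irx2, which lies beside Irx1 on chromosome 13, had 15.4 and 16.1 CPM in iWAT, 2.11 and 2.29 in BAT and 1.86 and 1.99 in eWAT (2.92 ± 0.28, adjusted p = 0.00332). Both Irx genes had almost the same low level in the 4 other libraries. Twist1, a mesenchymal regulator, had 73.4 and 75.7 CPM in iWAT, 35.9 and 26.4 in BAT and 22.1 and 20.2 in eWAT (1.54 ± 0.15, adjusted p = 0.00332). Emx2, a homeobox gene of the limb girdle and urogenital ridge, had 15.4 and 13.3 CPM in iWAT, 3.80 and 2.68 in BAT and 3.96 and 2.84 in eWAT (2.10 ± 0.26, adjusted p = 0.00869), and lost its call without either iWAT replicate (0.0839 and 0.0674) and without the block (0.068). Tbx15, a T-box gene of the trunk, differed in kind: it had 86.1 and 75.9 CPM in iWAT, 48.4 and 32.5 in BAT and 0.466 and 3.41 in eWAT, so that BAT lay near iWAT and eWAT far below. Its difference from the midpoint passed (3.23 ± 0.32, adjusted p = 0.00389, or 0.0524 without the block) while that from BAT did not (0.99 ± 0.32, adjusted p = 0.0906). Without the replicate block 4 of the 19 were called. Without BAT replicate 1, or without BAT replicate 2, 10 were. Of 7 tested regulators of visceral mesenchyme 0 were called in either direction by edgeR with the block, while 3 had an unadjusted p below 0.05 and DESeq2 called 1 lower. Tcf21, among the 7, had 0.481 and 0 CPM in iWAT, 0.845 and 0 in BAT and 49.6 and 13.9 in eWAT, at or near 0 in iWAT and BAT alike. Wt1 did not share this pattern. It had 68 and 28 reads in iWAT, 8 and 1 in BAT and 122 and 104 in eWAT (midpoint difference 0.96, adjusted p = 0.306). Of the 7, 6 had an iWAT mean between the depots and 1 below both. Emx2 was picked for mention after its values were seen.

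Promoters are shown for the HoxA genes, since genes of 1 cluster were called in opposite directions, with Hoxa6 (not tested) and Hoxa7 (not called, adjusted p = 0.758) lying between Hoxa5 and Hoxa9. The sequences are from RefSeq (build GRCm38.p6), which held 5 of the 7 patterning genes looked up (Hoxa5, Hoxa9, Hoxa10, Irx2 and Shox2, not Hoxc10 and Irx1). Each runs 5′ to 3′ on the gene's strand, the minus strand here, from 250 bases before to 50 after the transcript start. For Hoxa10, with 2 starts in the table, the start of the transcript whose reads were counted was used. Capitals mark matches, on either strand, to 4 motifs. The core promoter motif was searched as TATAAA and the motif bound by factor NF-Y as CCAAT. The motif of Sp1 was searched as GGGCGG and the nuclear receptor half-site as AGGTCA. The windows are chr6:52204538-52204837 for Hoxa5, chr6:52227321-52227620 for Hoxa9 and chr6:52240805-52241104 for Hoxa10.
Hoxa5: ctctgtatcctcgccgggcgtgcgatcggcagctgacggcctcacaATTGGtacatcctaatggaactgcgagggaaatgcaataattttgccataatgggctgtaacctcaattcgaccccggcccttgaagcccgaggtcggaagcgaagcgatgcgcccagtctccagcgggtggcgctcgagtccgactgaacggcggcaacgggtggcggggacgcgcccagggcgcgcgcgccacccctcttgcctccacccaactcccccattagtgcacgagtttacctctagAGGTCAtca
Hoxa9: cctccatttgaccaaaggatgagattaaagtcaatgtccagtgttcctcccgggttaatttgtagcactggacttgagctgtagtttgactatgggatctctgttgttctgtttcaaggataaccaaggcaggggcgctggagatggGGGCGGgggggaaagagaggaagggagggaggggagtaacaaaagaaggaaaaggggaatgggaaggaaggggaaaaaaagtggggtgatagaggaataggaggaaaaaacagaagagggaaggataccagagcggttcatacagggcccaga
Hoxa10: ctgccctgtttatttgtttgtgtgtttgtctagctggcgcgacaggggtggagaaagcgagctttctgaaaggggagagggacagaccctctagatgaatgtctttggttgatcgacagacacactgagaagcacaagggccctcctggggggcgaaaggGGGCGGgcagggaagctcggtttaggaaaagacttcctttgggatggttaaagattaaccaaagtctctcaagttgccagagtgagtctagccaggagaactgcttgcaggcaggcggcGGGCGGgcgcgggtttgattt
TATAAA was found in 13.6% of all 32817 windows of that length, CCAAT in 37.4%, GGGCGG in 35.6% and AGGTCA in 16.3%. The Hoxa5 window held 1 CCAAT match on the opposite strand and 1 AGGTCA match near its end. Hoxa9 had 1 GGGCGG match and Hoxa10 had 2. The windows held 29 CpG dinucleotides in Hoxa5, 4 in Hoxa9 and 12 in Hoxa10, beside a median of 7 over all windows. These matches describe the letters only.

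Against the midpoint, 245 genes (2.09% of those tested) were higher in iWAT and 49 (0.418%) lower, so that 294 (2.51%) were called in either direction, and 1771 had an unadjusted p below 0.05. Of the 245, 210 had an iWAT mean above both depots and 35 lay between them, near the higher end. Of the 49, 31 lay below both and 18 between. The stricter class of genes called in both contrasts held 81 above (0.69%) and 11 below (0.0938%), and all 92 were also called against the midpoint. Against BAT alone 1225 genes (10.4%) were called, 691 (5.89%) higher and 534 (4.55%) lower. Against eWAT alone 563 (4.8%) were called, 195 (1.66%) higher and 368 (3.14%) lower. These contrasts share the iWAT libraries. In 79 of the 81 and 9 of the 11, both iWAT libraries lay outside all 4 others, which held for 6.22% (above) and 4.3% (below) of all tested genes. The same libraries set the calls, so this separation and the midpoint calls of all 92 follow largely from the selection. The numbers of genes called depend on the pairing of the libraries by replicate letter. Without that block 33 genes were higher and 2 lower than the midpoint, and 0 were called outside both depots. The unadjusted p of the midpoint test was then below 0.05 for 867 genes. With BAT replicate 1 left out the counts were 724 and 309, with 230 above and 34 below both. With BAT replicate 2 left out they were 621 and 247, with 169 and 41. Without iWAT replicate 1 they fell to 159 and 26, with 64 and 5, and without iWAT replicate 2 to 168 and 25, with 61 and 3.

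**Figure D1:**
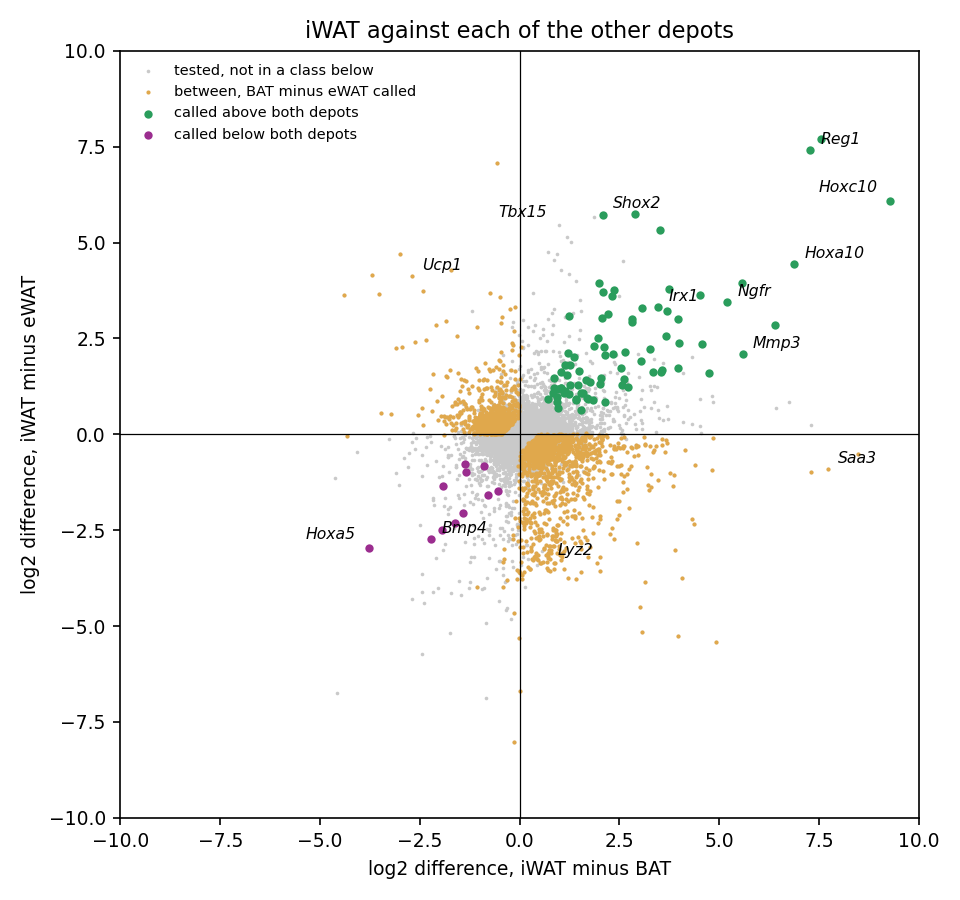
Each point is 1 of 11732 tested genes, by its fitted log2 difference of iWAT minus BAT (x) and iWAT minus eWAT (y). Genes above both depots fall in the upper right, where 81 were called (green), against 11 in the lower left (purple), and the genes called between BAT and eWAT with iWAT in the middle (orange) fill the other quadrants. Fitted values of genes with no reads in a depot are not bounded.

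The genes with the widest distance between iWAT and the nearer depot included secreted and membrane proteins beside the patterning genes. Reg1, a secreted lectin best known from the pancreas, had 23.3 and 31.9 CPM in iWAT, 0 and 0.382 in BAT and 0 and 0.284 in eWAT. From 224 reads in iWAT and 1 in each other depot, the ratio was 202 to BAT (interval 35.9 to 8030) and 215 to eWAT (38.2 to 8530), and Reg1 passed under all 12 alternatives. Fxyd6, a regulator of the sodium pump, had 27.4 and 28.7 CPM in iWAT, 0.634 and 0.382 in BAT and 0.932 and 2.84 in eWAT (4.76 ± 0.35, adjusted p = 0.00148), and its iWAT libraries differed little from each other. Wnt16, a secreted Wnt ligand, had 11.3 and 10.6 CPM in iWAT, 1.06 and 0.382 in BAT and 0.699 and 0.853 in eWAT (3.76 ± 0.39, adjusted p = 0.00447). Fxyd6 and Wnt16 also passed under all 12 alternatives. Akr1c14, a steroid dehydrogenase, had 25.98 and 42.7 CPM in iWAT, 1.27 and 1.53 in BAT and 0.699 and 5.40 in eWAT (4.07 ± 0.37, adjusted p = 0.00282), with no overlap between iWAT and the rest. Ndnf, a secreted neurotrophic factor, had 60.9 and 23.1 CPM in iWAT, 2.75 and 3.06 in BAT and 10.3 and 0.853 in eWAT (3.48 ± 0.40, adjusted p = 0.00687). Its iWAT libraries differed from each other by more than those of Fxyd6 or Wnt16 and still lay above the rest. Cadm2, an adhesion molecule, had 14.7 and 6.54 CPM in iWAT, 1.69 and 0 in BAT and 0.466 and 0 in eWAT, a ratio to eWAT of 41.8 (interval 11.2 to 350). Its fitted midpoint difference, which depends on the prior count at so few reads, was 4.43, or 7.77 without BAT replicate 1, which held all 8 BAT reads. Mup10, of the major urinary protein family, had reads only in iWAT, 15 and 41, at least 16.9-fold higher than in BAT and at least 17.9-fold higher than in eWAT. Reads of this family can be shared among near-identical genes, so the assignment to Mup10 is uncertain, and the call was lost without iWAT replicate 2 (adjusted p = 0.0893) and by DESeq2 (0.8). Without the replicate block the calls of Akr1c14 (adjusted p = 0.0692), Ndnf (0.219), Cadm2 (0.169) and Mup10 (0.159) were lost. Reg1, Fxyd6, Wnt16, Akr1c14, Cadm2 and Mup10 had enough reads to be tested only through iWAT. All genes of this paragraph were named by their distance from iWAT to the nearer depot. Their calls and the alternatives they passed rest on those same values and are no separate support.

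Ngfr, the low-affinity neurotrophin receptor, had 117 and 139 CPM in iWAT, 3.80 and 3.82 in BAT and 23.99 and 1.71 in eWAT (4.32 ± 0.54, adjusted p = 0.00867, or 0.101 without the block). The lower iWAT library was several times the highest of the others, and eWAT replicate 1 stood above the remaining 3. Ntrk2, a further neurotrophin receptor, had 15.9 and 23.1 CPM in iWAT, 1.90 and 2.68 in BAT and 1.86 and 1.99 in eWAT (3.18 ± 0.27, adjusted p = 0.00228), and Nrn1, a neurite growth factor, 106 and 49.3 CPM in iWAT, 12.3 and 8.41 in BAT and 1.16 and 1.71 in eWAT (4.31 ± 0.24, adjusted p = 0.000463). Ngfr also marks Schwann cells. Of 10 Schwann cell markers 5 were tested and 1 was called higher, Ngfr itself, beside 2.09% of all tested genes. The summed level of the 10, Ngfr included, was from 136.4 to 162.2 CPM in iWAT and from 9.955 to 62.71 in the other depots. Without Ngfr it was 19.3 and 23.4 CPM in iWAT, below BAT (35.7 and 58.9) and above eWAT (7.69 and 8.25). S100b, a marker with most of its reads in BAT, had 5.53 and 9.80 CPM in iWAT, 22.4 and 43.97 in BAT and 0.466 and 1.71 in eWAT (adjusted p = 0.612). The defining marker Sox10 had 3 and 5 reads in iWAT, 0 and 0 in BAT and 1 and 1 in eWAT. The part of Schwann cells in the Ngfr level was not tested. Ntrk2 and Nrn1 passed under all 12 alternatives, and were chosen after their values were seen. Ntrk2 had enough reads to be tested only through iWAT.

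**Figure D2:**
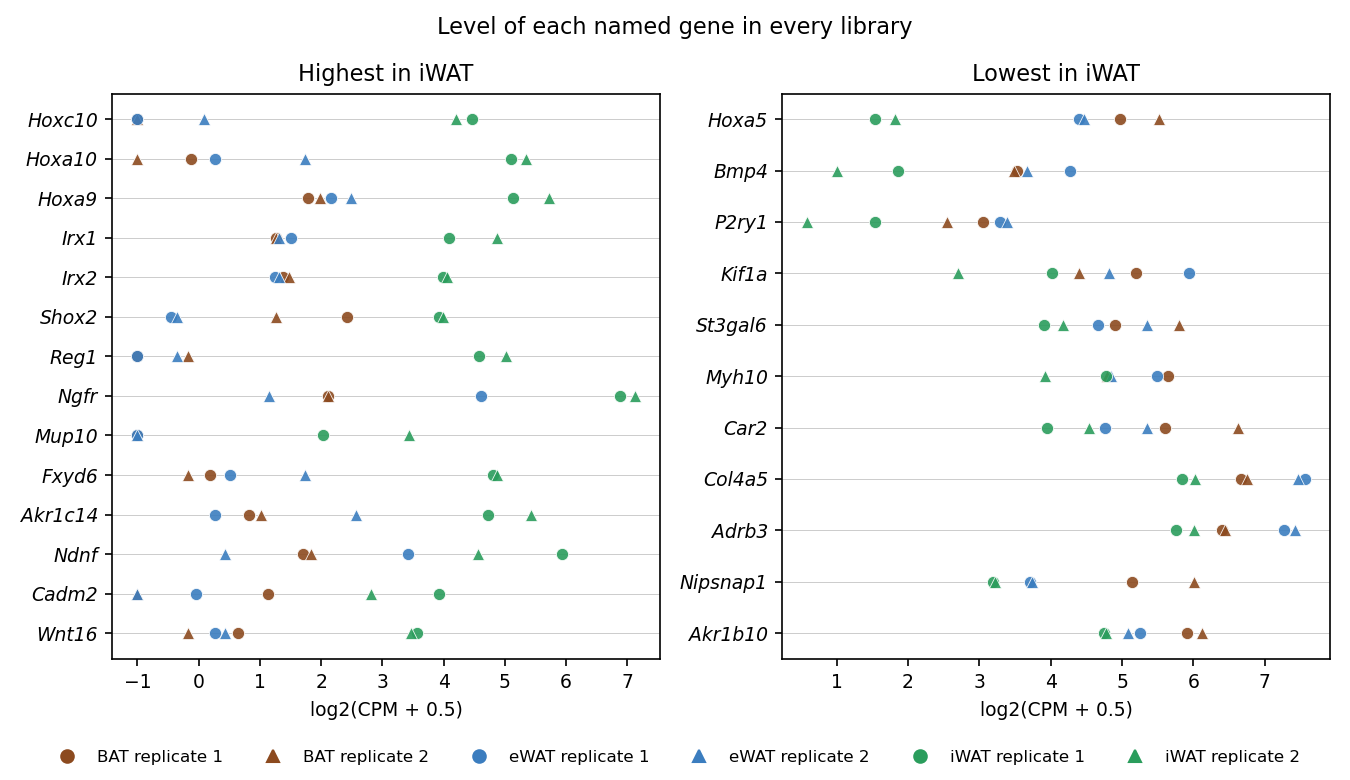
Level of each gene in every library on a log2(CPM + 0.5) scale, with circles for replicate 1 and triangles for replicate 2. The left panel holds genes highest in iWAT (green), whose points lie to the right of all BAT (brown) and eWAT (blue) points, and the right panel the 11 genes lowest in iWAT that met the naming rule.

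Of the gene lists examined, that of collagens and matrix held the most genes called off the midpoint, and it was also among the longest. Of 46 tested collagens and other matrix genes, 17 were higher in iWAT than the midpoint and 0 lower, and 8 were above both depots. Over all tested genes these shares were 2.09%, 0.418% and 0.69%, so the count of 0 lower was near the share of all genes. The limb list had a like share higher, 7 of 19. The median midpoint difference over the 46 was 0.73. The 3 chains of collagen VI were all among the 8: Col6a1 had 1596 and 1696 CPM in iWAT, 729 and 669 in BAT and 812 and 791 in eWAT, Col6a2 743 and 669 CPM in iWAT, 238 and 275 in BAT and 312 and 263 in eWAT and Col6a3 1523 and 1238 CPM in iWAT, 355 and 327 in BAT and 451 and 661 in eWAT. Both iWAT libraries were above the other 4 for each chain. For Col6a3 both BAT libraries were also below both eWAT libraries (BAT minus eWAT -0.70 ± 0.22, adjusted p = 0.0597). The midpoint differences were 1.14 ± 0.13, 1.38 ± 0.14 and 1.67 ± 0.18 (adjusted p = 0.00669, 0.00361 and 0.00568), and Col6a1 had an adjusted p of 0.0623 without the block. Mmp3, stromelysin, had 372 and 600.1 CPM in iWAT, 7.82 and 12.2 in BAT and 82.00 and 150.2 in eWAT (3.84 ± 0.12, adjusted p = 5.19e-05) and passed under all 12 alternatives. Its order was the same in both replicates, lowest in BAT, higher in eWAT and highest in iWAT. Mmp2, a gelatinase, followed that order with a wide spread between replicates, 449 and 1098 CPM in iWAT, 49.7 and 66.9 in BAT and 134 and 356 in eWAT (2.63 ± 0.19, adjusted p = 0.00148, or 0.114 without the block). Vcan, the proteoglycan versican, had 462 and 260.2 CPM in iWAT, 138 and 48.6 in BAT and 178 and 88.5 in eWAT, so that BAT replicate 1 exceeded eWAT replicate 2, while iWAT lay above all (1.76 ± 0.15, adjusted p = 0.00231, or 0.406 without the block). Thbs2, a thrombospondin of connective tissue, had 2966 and 1417 CPM in iWAT, 658 and 409.5 in BAT and 793 and 138 in eWAT (2.24 ± 0.32, adjusted p = 0.0142, or 0.461 without the block). Enzymes that modify or process collagen were among the 81 too. Plod1, a lysyl hydroxylase, had 215 and 301 CPM in iWAT, 87.1 and 131 in BAT and 80.6 and 136 in eWAT (1.27 ± 0.11), and Pcolce, which aids removal of the procollagen end, 409.9 and 401 CPM in iWAT, 182 and 186 in BAT and 186 and 181 in eWAT (1.14 ± 0.11). The prolyl hydroxylase genes P4ha1 (0.81 ± 0.14) and P4ha2 (0.95 ± 0.16) were also called above both, and lost the midpoint call without eWAT replicate 1 or either iWAT replicate (adjusted p from 0.0546 to 0.158). Without the block Plod1 had an adjusted p of 0.235, P4ha1 of 0.24 and P4ha2 of 0.187. The genes of collagen VI, Thbs2, Plod1, Pcolce, P4ha1 and P4ha2 were chosen after their values were seen.

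Within the matrix list there were also genes at which iWAT did not exceed eWAT. The proteoglycan decorin, Dcn, had 1595 and 1887 CPM in iWAT, 136 and 159 in BAT and 1670.1 and 2106 in eWAT, a midpoint difference of 1.72 ± 0.13 (adjusted p = 0.00153), and iWAT minus eWAT was -0.11 ± 0.16 (adjusted p = 0.824). Over the list, the median difference was 1.11 from BAT and 0.25 from eWAT. Col4a5, a basement membrane collagen that was not on the list, was called below both depots, so the count of 0 lower holds for the 46 listed genes and not for every collagen. Without the replicate block 6 of the 46 were called higher. With a library left out the number ran from 14 to 27, the latter without either BAT replicate.

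Part of the markers of fibroblasts and preadipocytes moved with the matrix genes. Of 21 tested, 7 were higher than the midpoint, 0 lower and 2 above both depots (median 0.78), beside 2.09%, 0.418% and 0.69% of all tested genes. By mean, 11 of the 21 lay above both depots, 7 between them and 3 below both. At an unadjusted p below 0.05 by edgeR, 11 were higher and 3 lower. Fap, a fibroblast surface protease, had 75.1 and 62.3 CPM in iWAT, 13.5 and 9.18 in BAT and 31.7 and 19.6 in eWAT (2.02 ± 0.15, adjusted p = 0.00148, or 0.0501 without the block). Thy1, a surface glycoprotein of mesenchymal cells, had 132 and 139 CPM in iWAT, 83.9 and 35.6 in BAT and 17.01 and 15.4 in eWAT (2.16 ± 0.24, adjusted p = 0.00612, or 0.07 without the block), with BAT above eWAT and iWAT above both. Pdgfra, the receptor that marks adipocyte precursors, had 1463 and 1456 CPM in iWAT, 301 and 226 in BAT and 956 and 953 in eWAT (1.54 ± 0.14, adjusted p = 0.00311), so its step from eWAT to iWAT was small and did not pass (0.61 ± 0.17, adjusted p = 0.109). Ly6a, a marker of precursors, had 213 and 183 CPM in iWAT, 48.8 and 26.4 in BAT and 109.96 and 129 in eWAT (1.55 ± 0.19, adjusted p = 0.0083, or 0.0781 without the block). Cdh11, a mesenchymal cadherin chosen after its values were seen, had 414 and 302 CPM in iWAT, 197 and 122 in BAT and 157 and 92.7 in eWAT (1.37 ± 0.12, adjusted p = 0.00255, or 0.219 without the block). The summed level of the fibroblast list was 3663 and 3115 CPM in iWAT, 2896 and 2183 in eWAT and 2155 and 1498 in BAT. That of 30 adipocyte genes was 53660 and 56040 in iWAT, within the range of the other 4 libraries (47760 to 80380), and 0 of the 30 were called in either direction by edgeR (5 at an unadjusted p below 0.05, and 1 by DESeq2). In bulk RNA, more cells of a type and more RNA per cell cannot be told apart. The part of undifferentiated cells in these results was not tested. Without the block 1 of the 21 was called higher, without iWAT replicate 2 there were 4 and without BAT replicate 1 there were 11.

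Several secreted signals were above both depots. Igfbp5, which binds insulin-like growth factors, had 70.7 and 438 CPM in iWAT, 10.8 and 58.9 in BAT and 9.78 and 54.6 in eWAT. In each depot replicate 2 was several times replicate 1, so iWAT replicate 1 was only just above BAT replicate 2, and the difference from the midpoint within replicates was steady (2.88 ± 0.12, adjusted p = 0.00011, or 0.514 without the block). Igfbp6 showed the same replicate gap on a smaller scale, 71.2 and 176 CPM in iWAT, 14.4 and 22.6 in BAT and 16.3 and 38.97 in eWAT (2.39 ± 0.16, adjusted p = 0.000992, or 0.145 without the block). Both belong to 28 tested adipokines and secreted factors, of which 5 were higher, 1 lower and 2 above both (2.09%, 0.418% and 0.69% of all tested genes). The other 3 higher, Cfd, Igf1 and Wisp2, were not above both depots, and the 1 lower was Npr3 (Wisp2 and Npr3 were named after their values were seen). Without the block 0 of the 28 were called, and the call of Igf1 was also lost without eWAT replicate 1 or either iWAT replicate (adjusted p from 0.0659 to 0.157). Of 27 tested Wnt pathway genes 3 were higher and 0 lower, beside 2.09% and 0.418% of all tested genes. The median midpoint difference of the list was -0.06, and at an unadjusted p below 0.05 by edgeR 5 were higher and 4 lower. Wnt16 was not on this list. Sfrp4, a secreted Wnt antagonist, was above both with 23.6 and 12.8 CPM in iWAT, 4.02 and 3.06 in BAT and 0.466 and 2.56 in eWAT (2.97 ± 0.45, adjusted p = 0.0185), and lost the call without iWAT replicate 1 (0.202) and without the block (0.11). Sfrp2 had 303 and 67.9 CPM in iWAT, 24.1 and 6.88 in BAT and 126 and 71.4 in eWAT, where iWAT replicate 2 lay below both eWAT libraries, and the adjusted p of the midpoint difference (2.04 ± 0.25) was 0.00798 with and 0.444 without the block. Dkk2 rested on iWAT replicate 1: it had 34.6 and 2.77 CPM in iWAT, 11.2 and 4.97 in BAT and 0.932 and 0.284 in eWAT, and its midpoint difference of 2.82 (adjusted p = 0.0364) was 1.03 without that library (0.727) and 2.45 without eWAT replicate 1 (0.204), and did not pass without the block (0.517). Of 30 tested genes of the BMP and TGF-β pathways, 2 were higher, both above both depots, and 1 was lower. Over all tested genes these shares were 2.09%, 0.69% and 0.418%. The list had a median midpoint difference of 0.11, with 10 higher and 6 lower at an unadjusted p below 0.05 by edgeR. The TGF-β receptor gene Tgfbr2, among those higher, had 503 and 604 CPM in iWAT, 239 and 181 in BAT and 308 and 286 in eWAT (1.15 ± 0.15, adjusted p = 0.0112). Both iWAT libraries of Tgfbr2 lay above the other 4, and its call was lost without iWAT replicate 2 (0.0541) and without the block (0.0773).

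Further genes called above both depots were picked for mention after their values were seen. The cytokine, complement, interferon and macrophage lists each held 0 genes above both by edgeR, near the share of all tested genes (0.69%). These counts hold for the listed genes only. The interferon-inducible genes Ifi205 and Mndal, not on these lists, were called above both. Ifi205 had 106 and 148 CPM in iWAT, 4.86 and 4.59 in BAT and 51.3 and 32.4 in eWAT. Mndal had 54.8 and 70.6 CPM in iWAT, 12.9 and 7.3 in BAT and 27.0 and 24.5 in eWAT. Both passed the midpoint test under all 12 alternatives. Fgl2, a membrane and secreted fibrinogen-like protein, had 151 and 325 CPM in iWAT, 7.61 and 11.5 in BAT and 30.8 and 61.7 in eWAT (3.45 ± 0.13, adjusted p = 0.000108). Ly6c1, a surface antigen, had 12.03 and 15.3 CPM in iWAT, 1.06 and 0.382 in BAT and 2.33 and 2.84 in eWAT (3.19 ± 0.35, adjusted p = 0.00573), and both passed under all 12 alternatives. Il1r2, a decoy receptor for interleukin 1, had 8.18 and 10.6 CPM in iWAT, 0.634 and 0.765 in BAT and 1.40 and 1.71 in eWAT (3.12 ± 0.35, adjusted p = 0.00628), and lost the call without either iWAT replicate (0.0585 and 0.0526). Folh1, a surface carboxypeptidase, had 30.5 and 79.2 CPM in iWAT, 0.211 and 1.15 in BAT and 3.49 and 12.2 in eWAT, low in BAT, higher in eWAT and highest in iWAT (adjusted p = 0.000367, or 0.0686 without the block). Emb, a chaperone of monocarboxylate transporters, had 718 and 553 CPM in iWAT, 163 and 184 in BAT and 159 and 102 in eWAT (2.07 ± 0.17, adjusted p = 0.00185) and passed under all 12 alternatives. Of these genes, Ly6c1 and Il1r2 had enough reads to be tested only through iWAT. The inguinal pad holds a lymph node. Reads of the lymphocyte genes Ms4a1, Cd79a, Cd79b and Cd3e were at 0 in both iWAT libraries and Cd3d had 0 and 2, and the summed level of 15 lymphocyte markers was 15.88 and 8.296 CPM in iWAT, 12.47 and 4.206 in BAT and 89.92 and 46.93 in eWAT. That sum includes Ptprc, which other leukocytes such as macrophages express too, so it does not stand for lymphocytes alone. Ptprc had 56 and 16 reads in iWAT, 52 and 8 in BAT and 364 and 147 in eWAT. Of the epithelial markers, Epcam, Krt5, Krt8, Krt14 and Krt18 were at 0 in both iWAT libraries, and the 18 markers of that list summed to 3.608 and 3.268 CPM.

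Among the 81 genes, 5 pairs were neighbours on the chromosome in the file's order of genes: Irx1 with Irx2, Hoxa9 with Hoxa10, Col6a1 with Col6a2, Cped1 with Wnt16, and Sned1 with Mterf4. Sned1, a matrix glycoprotein, had 148 and 236 CPM in iWAT, 11.2 and 12.6 in BAT and 54.7 and 58.02 in eWAT (2.85 ± 0.15), while Mterf4, of mitochondrial ribosome assembly, moved less, 101 and 159 CPM in iWAT, 50.7 and 68.1 in BAT and 56.1 and 63.7 in eWAT (1.09 ± 0.13). Cped1 had a midpoint difference of 0.89 ± 0.13 beside 3.76 ± 0.39 for Wnt16. How reads of overlapping neighbours were assigned is not given in the sources used here. Sned1, Mterf4 and Cped1 were chosen after their values were seen. Cped1 lost its call without eWAT replicate 2 or either iWAT replicate (adjusted p from 0.0557 to 0.0809), and it and Mterf4 lost it without the block (0.191 and 0.181).

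Fewer genes were lowest in iWAT. Beside Hoxa5, Bmp4, a growth factor that commits precursors to the adipocyte lineage, had 3.13 and 1.51 CPM in iWAT, 10.99 and 10.7 in BAT and 18.9 and 12.2 in eWAT. It fell by 2.47 against the midpoint (SE 0.34, adjusted p = 0.0126, or 0.101 without the block), and both iWAT libraries lay below the other 4. Adrb3, the adrenergic receptor of adipocytes that triggers lipolysis and heat production, had 53.6 and 63.6 CPM in iWAT, 84.1 and 86.4 in BAT and 154 and 172 in eWAT (-1.01 ± 0.12, adjusted p = 0.0078). The order of Adrb3 was eWAT over BAT over iWAT in both replicates, and it was the 1 gene called among 25 tested brown thermogenic genes (2.51% of all tested genes were called). Its call was lost without iWAT replicate 1 (0.0567) and without the block (0.0773). Col4a5, a chain of basement membrane collagen IV, had 57.01 and 64.4 CPM in iWAT, 101 and 107 in BAT and 188 and 177 in eWAT (-1.19 ± 0.13, adjusted p = 0.00538). Col4a5 and Hoxa5 were the genes lower in iWAT under the planned fit and all 12 alternatives.

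Kif1a, a kinesin motor, had 15.6 and 6.03 CPM in iWAT, 36.1 and 20.6 in BAT and 61.03 and 27.6 in eWAT (-1.73 ± 0.20, adjusted p = 0.00612, or 0.48 without the block). Replicate 1 was the higher in every depot, so iWAT replicate 1 came close to BAT replicate 2. P2ry1, a purine receptor, had 2.41 and 1.01 CPM in iWAT, 7.82 and 5.35 in BAT and 9.32 and 9.95 in eWAT (-2.22 ± 0.41, adjusted p = 0.0398), and its call was lost without eWAT replicate 2 or either iWAT replicate (0.0649 to 0.219) or the block (0.187). St3gal6, a sialyltransferase, had 14.4 and 17.6 CPM in iWAT, 29.4 and 55.1 in BAT and 24.9 and 40.1 in eWAT (-1.17 ± 0.19, adjusted p = 0.0235) and lost its call without iWAT replicate 2 (0.193) and without the block (0.434). Myh10, a non-muscle myosin, had 26.9 and 14.6 CPM in iWAT, 49.5 and 27.1 in BAT and 44.5 and 28.2 in eWAT, where replicates differed as much as depots did, and its call (-0.85 ± 0.16, adjusted p = 0.0364) was lost without either eWAT or either iWAT library (0.0747 to 0.202), by DESeq2 (0.12) and without the block (0.718). Adcyap1r1, a neuropeptide receptor, had 34.6 and 10.3 CPM in iWAT, 104 and 32.5 in BAT and 209 and 37.5 in eWAT (-1.97 ± 0.21, adjusted p = 0.00548, or 0.709 without the block), with iWAT replicate 1 above BAT replicate 2. Ces1d, a carboxylesterase that acts on stored lipid, had 92.4 and 175 CPM in iWAT, 229.7 and 469 in BAT and 144 and 333 in eWAT (-1.08 ± 0.13, adjusted p = 0.00766, or 0.706 without the block). Adcyap1r1 and Ces1d were chosen after their values were seen. The other gene below both was the clone 4930506M07Rik. Car2, Nipsnap1 and Akr1b10 met the naming rule with all iWAT values lowest, and were called against the midpoint and against BAT but not against eWAT (adjusted p = 0.0561, 0.455 and 0.282). Carbonic anhydrase Car2, for example, had 14.9 and 22.6 CPM in iWAT, 47.97 and 97.9 in BAT and 26.6 and 40.4 in eWAT. Their midpoint calls were lost without the block (0.399, 0.187 and 0.156), that of Nipsnap1 also without eWAT replicate 1 (0.0527) or iWAT replicate 2 (0.15), and that of Akr1b10 by DESeq2 (0.0725) and without eWAT replicate 1 or either iWAT replicate (0.106 to 0.169).

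On the axis itself, 2780 genes (23.7%) were called between BAT and eWAT, 1276 higher in BAT (10.9%) and 1504 higher in eWAT (12.8%). This contrast is taken between BAT and eWAT, though the iWAT libraries enter the shared estimates of spread and of the replicate effect. The iWAT mean lay between the depots in 1112 (87.1%) of the genes higher in BAT and in 1162 (77.3%) of those higher in eWAT. Position was scaled so that the eWAT mean is 0 and the BAT mean 1. The median position of iWAT was 0.30 over the genes higher in BAT (quartiles 0.16 and 0.48) and 0.40 over those higher in eWAT (0.11 and 0.69). Within replicate 1 the medians were 0.40 and 0.44, and within replicate 2 they were 0.22 and 0.39. Beyond the ends, 42 and 96 genes lay past BAT and 122 and 246 past eWAT, for genes higher in BAT and in eWAT respectively. Leaving out eWAT replicate 1 or 2 left 939 or 1023 genes called on the axis with iWAT between. Without the replicate block 662 genes were called on the axis with iWAT between, against 2274 with it.

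**Figure D3:**
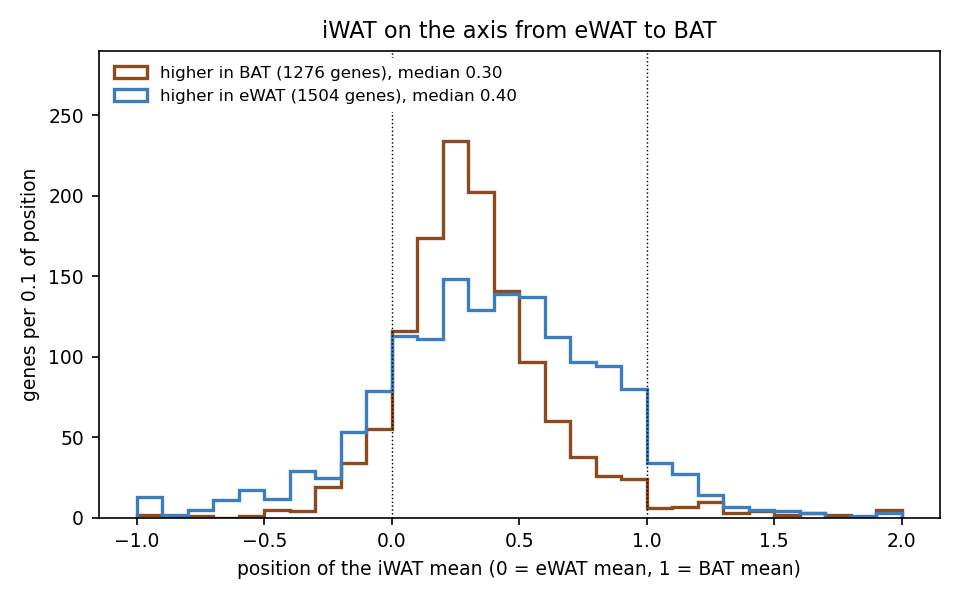
Number of genes by the position of the iWAT mean between eWAT (0) and BAT (1), in steps of 0.1, for genes called higher in BAT (brown) or in eWAT (blue). Both curves peak between the dotted lines and nearer to eWAT, with medians of 0.30 and 0.40, and positions past -1 or 2 are drawn in the end bins.

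Most genes of heat production and mitochondria lay between the depots, as did 87.1% of all genes called higher in BAT. Called on the axis were 23 of 25 thermogenic, 48 of 51 oxidative phosphorylation, 17 of 20 citrate cycle and 16 of 25 fatty acid oxidation genes. A place between the depots was thus not particular to these lists. Ucp1, the uncoupling protein of brown fat, had 1114 and 995 CPM in iWAT, 4924 and 9294 in BAT and 59.6 and 62.9 in eWAT. The iWAT libraries were far above eWAT (4.12 ± 0.31, adjusted p = 0.00177) and far below BAT (-2.70 ± 0.29, adjusted p = 0.003), and the difference from the midpoint did not pass (0.71 ± 0.23, adjusted p = 0.212). It passed in 4 of 12 alternatives, at 0.47 without BAT replicate 1 (0.0479), at 0.95 without BAT replicate 2 (0.000601), with no filter (0.00448) and by the likelihood ratio test (0.0464). Of the 25 thermogenic genes 21 lay between the depots (median midpoint difference -0.25), and 9 were called lower without BAT replicate 1 and 5 without BAT replicate 2. Of 51 nuclear genes of oxidative phosphorylation, the iWAT mean of 50 lay between the depots. By edgeR 0 of the 51 were called off the midpoint, with 8 lower at an unadjusted p below 0.05 and 0 called by DESeq2, but 15 were called lower without BAT replicate 1. The median difference was -0.75 from BAT and 0.25 from eWAT. Cox5a, of cytochrome oxidase, had 187 and 199 CPM in iWAT, 352 and 442 in BAT and 154 and 175 in eWAT and Ndufs1, of complex I, 539 and 515 CPM in iWAT, 925 and 1319.5 in BAT and 462 and 524 in eWAT, in both cases close to eWAT. Of 20 citrate cycle genes 19 lay between (median midpoint difference -0.31), as did 23 of 25 genes of fatty acid oxidation (-0.26), with 0 called by edgeR in either list (5 and 7 lower at an unadjusted p below 0.05, and 2 and 0 by DESeq2). Without BAT replicate 1, 12 and 10 were called lower. Of 11 regulators of the brown lineage 1 was lower and 1 higher than the midpoint, beside 0.418% and 2.09% of all tested genes. Ebf2, a transcription factor of brown precursors, had 74.8 and 85.2 CPM in iWAT, 212 and 314 in BAT and 63.8 and 84.8 in eWAT, with iWAT at the level of eWAT (-0.79 ± 0.13, adjusted p = 0.0275). The call was lost without either eWAT or either iWAT library (0.0532 to 0.239) and without the block (0.418). Irf4, which acts with the brown fat coactivators, had 8.66 and 56.8 CPM in iWAT, 7.61 and 24.5 in BAT and 1.86 and 7.96 in eWAT (1.71 ± 0.25, adjusted p = 0.0167), and the call rested on iWAT replicate 2, without which the difference was 1.15 (0.426), and on the block (0.709). Of 13 beige adipocyte markers 1 was called, Slc27a1, a fatty acid transporter, with 488 and 434 CPM in iWAT, 75.2 and 46.6 in BAT and 528 and 632 in eWAT (1.29 ± 0.18, adjusted p = 0.0137, or 0.103 without the block). Over all tested genes 2.51% were called in either direction.

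A group of genes lay at the eWAT end, with BAT far below. Of the 1162 genes higher in eWAT with iWAT between, 48 were called off the midpoint, 32 of them nearer to eWAT. Saa3, an acute phase protein, had 1119 and 1529 CPM in iWAT, 7.82 and 2.68 in BAT and 1299 and 4178 in eWAT, and iWAT minus eWAT was -0.90 ± 0.43 (adjusted p = 0.374). Cxcl13, a chemokine that draws B cells, had no reads in BAT and 5.77 and 21.1 CPM in iWAT, 0 and 0 in BAT and 6.06 and 35.8 in eWAT, so iWAT was at least 32.5-fold higher than BAT. Spon1, a secreted matrix adhesion protein, had 178 and 264 CPM in iWAT, 5.92 and 9.94 in BAT and 243 and 219.9 in eWAT and Cpxm1, a secreted carboxypeptidase-like protein, 185 and 334 CPM in iWAT, 11.8 and 16.8 in BAT and 290.5 and 383 in eWAT. In these 4 genes both BAT libraries were far lower than the rest. Without the block Spon1 was still called, and Saa3 (adjusted p = 0.0773), Cxcl13 (0.651) and Cpxm1 (0.0692) were not. Serpinb2, a plasminogen activator inhibitor, had 48.4 and 38.7 CPM in iWAT, 3.38 and 0 in BAT and 78.97 and 71.7 in eWAT, with both iWAT libraries below eWAT. Its midpoint difference of 1.80 was 4.71 without BAT replicate 1, and the call was lost without eWAT replicate 1 (adjusted p = 0.0518), without iWAT replicate 1 (0.0958), by DESeq2 (0.844) and without the block (0.373). Of the complement list, 12 of 17 had iWAT between the depots. Against the midpoint 6 were called higher and 0 lower, beside 2.09% and 0.418% of all tested genes. Above both depots there were 0, beside 0.69%. The median difference was 2.46 from BAT and -0.56 from eWAT. C1qb, a subunit of C1q counted with the macrophage markers, was lower than the midpoint (adjusted p = 0.0129), with 2 and 1 reads in iWAT, 18 and 1 in BAT and 142 and 31 in eWAT. That call was lost without BAT replicate 1 (0.112), without iWAT replicate 1 (0.23) and without the block (0.417). C3, the central component, had 546 and 829 CPM in iWAT, 40.6 and 59.6 in BAT and 848 and 2129 in eWAT (1.38 ± 0.18, adjusted p = 0.0112), and lost the call without iWAT replicate 1 (0.0541). Of 25 tested cytokine, chemokine and acute phase genes, 5 were higher than the midpoint: Saa3, Cxcl13, Cxcl14 (named after its values were seen), Ccl8 and Il33. The share of all tested genes higher was 2.09%. Il33, an alarmin, had 47.4 and 86.98 CPM in iWAT, 0.211 and 1.15 in BAT and 19.8 and 61.7 in eWAT (3.80 ± 0.26, adjusted p = 0.00133), and its step from eWAT to iWAT did not pass (0.84 ± 0.22, adjusted p = 0.0847). Without the block 0 genes of the complement and cytokine lists were called, and without iWAT replicate 1 or 2 there were 3 complement genes.

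Macrophage genes showed the opposite position, with iWAT at the BAT end. Of 24 tested macrophage markers, 20 had iWAT between the depots and 4 below both, 6 were called lower than the midpoint (0.418% of all tested genes were) and 0 higher. The median difference was 0.54 from BAT and -3.17 from eWAT. Lyz2, lysozyme, had 457 and 119 CPM in iWAT, 323 and 61.2 in BAT and 3633 and 1443 in eWAT (-1.32 ± 0.23, adjusted p = 0.0305), and the receptor gene Csf1r had 20.4 and 9.30 CPM in iWAT, 13.9 and 6.50 in BAT and 109.7 and 54.04 in eWAT (-0.97 ± 0.16, adjusted p = 0.0268). In every depot replicate 1 was the higher, and both iWAT libraries lay far below both eWAT libraries. Cd53, Ms4a6d and Folr2, also known from macrophages, were at the BAT end with iWAT minus BAT of 0.11, 0.02 and -0.02 (SE 0.32, 0.44 and 0.37). The summed level of the list was 965.6 and 515.9 CPM in iWAT, 675.6 and 232.1 in BAT and 6456 and 3373 in eWAT. The calls of Lyz2 and Csf1r were lost without either iWAT replicate and without eWAT replicate 2 (adjusted p from 0.0556 to 0.156), that of Csf1r also without eWAT replicate 1 (0.0876) and by DESeq2 (0.0645), and without the block 0 of the 24 were called. The number lower was 17 without BAT replicate 2, 11 without eWAT replicate 1, 4 without BAT replicate 1, 3 without eWAT replicate 2 or iWAT replicate 2 and 1 without iWAT replicate 1. Genes higher in BAT that iWAT matched were fewer. Itgad, an integrin, had 30.8 and 11.8 CPM in iWAT, 33.4 and 12.6 in BAT and 3.73 and 0.569 in eWAT, and Ppp1r3c, a glycogen targeting subunit, 103 and 124 CPM in iWAT, 75.2 and 229.8 in BAT and 8.62 and 16.5 in eWAT, and both were called above the midpoint (adjusted p = 0.0201 and 0.027). Itgad lost the call without either iWAT library (0.126 and 0.0552), and Ppp1r3c without iWAT replicate 1, with a difference of 0.96 in place of 1.52 (0.0777), and both lost it without the block (0.687 and 0.528).

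**Figure D4:**
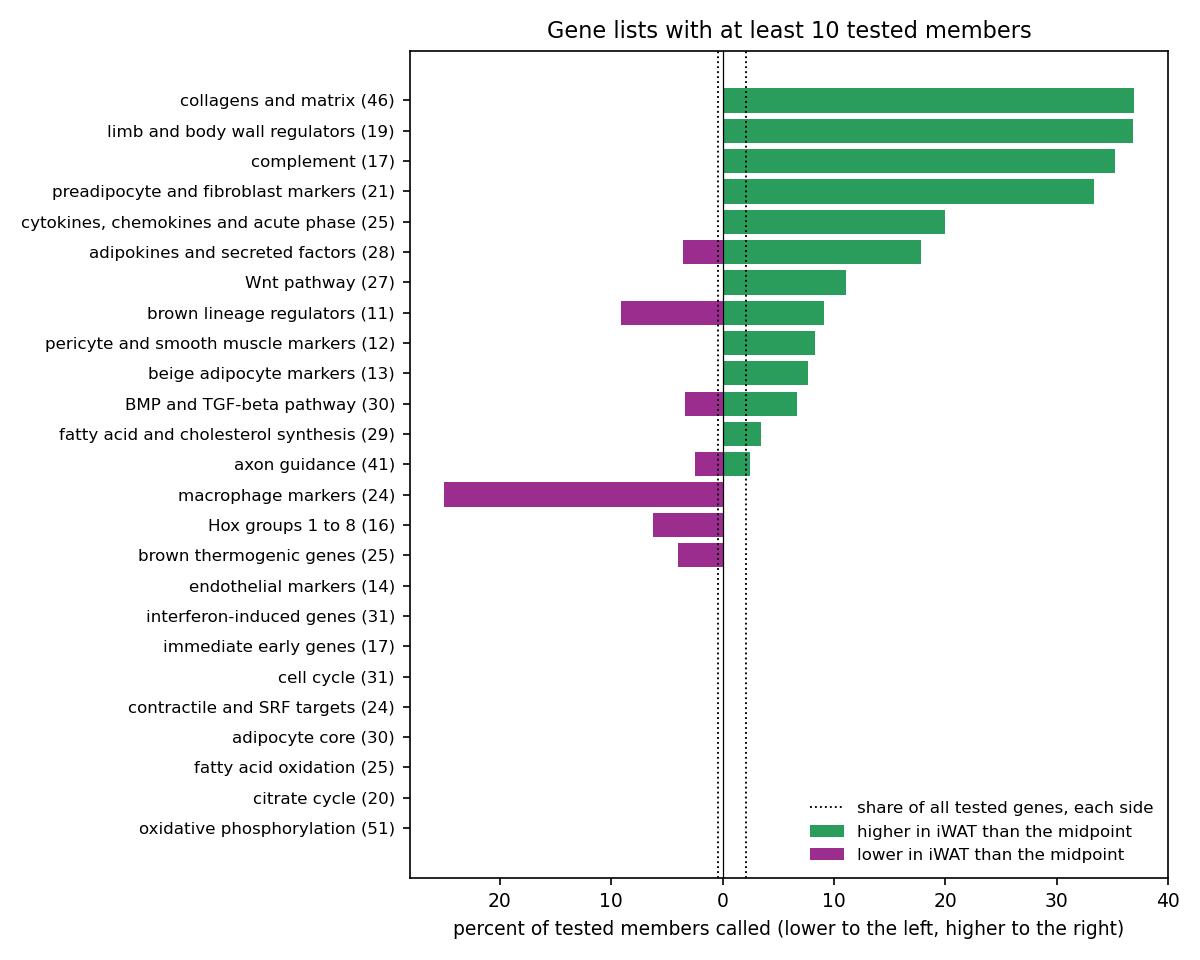
Share of the tested members of each gene list drawn (their number in brackets) called higher (green, right) or lower (purple, left) in iWAT than the midpoint, with dotted lines at the shares of all tested genes, 2.09% and 0.418%. Only lists with at least 10 tested members are drawn, and of these the matrix, limb, complement and fibroblast lists reach furthest right and the macrophage list furthest left.

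**Figure D5:**
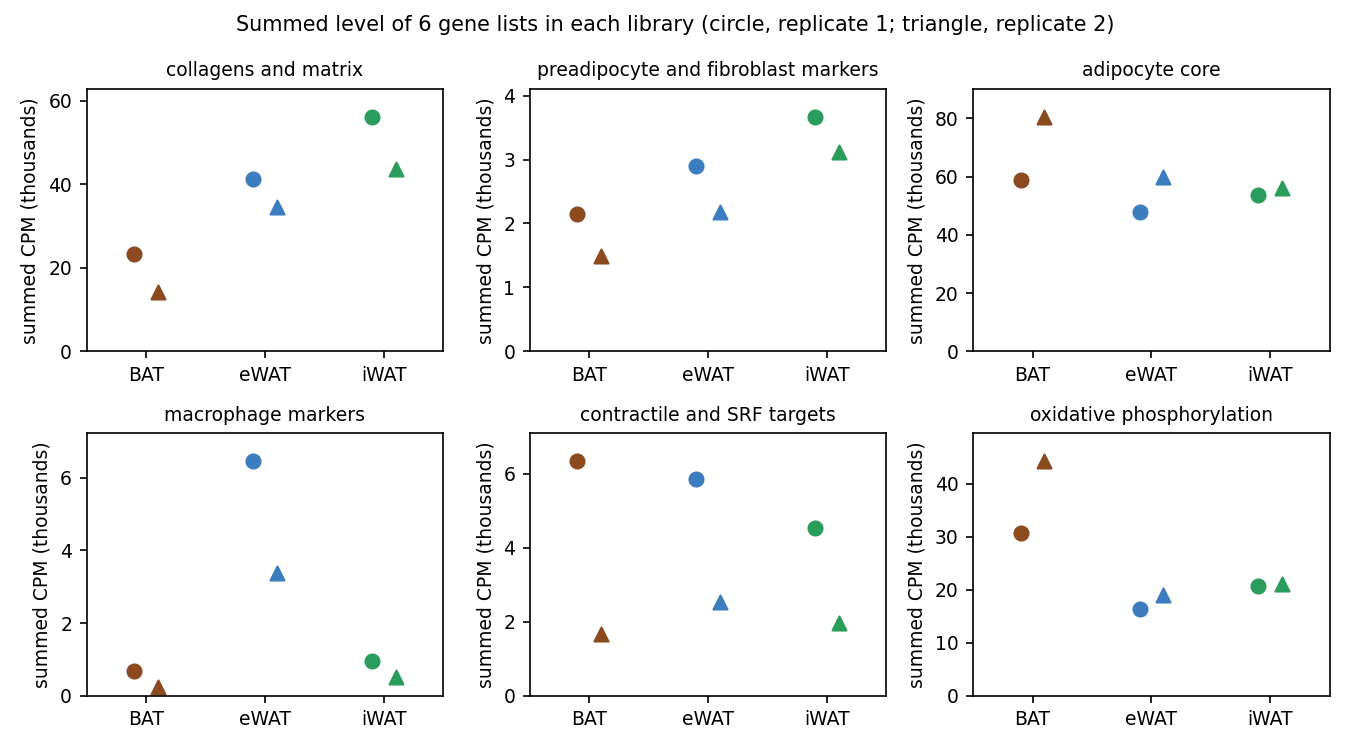
Summed CPM of 6 gene lists in each library, with circles for replicate 1 and triangles for replicate 2. The iWAT libraries are highest for the matrix and fibroblast lists, near BAT for macrophage markers and near eWAT for oxidative phosphorylation, and the contractile list separates replicates rather than depots.

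The lists that held no gene called off the midpoint by edgeR included 30 adipocyte genes, 31 cell cycle genes, 24 contractile genes, 31 interferon-induced genes, 17 immediate early genes and 14 endothelial markers. Contractile genes differed mainly by replicate, with summed levels in replicates 1 and 2 of 4537 and 1967 CPM in iWAT, 6331 and 1669 in BAT and 5867 and 2526 in eWAT. Tagln, a smooth muscle protein, had 323 and 55.1 CPM in iWAT, 747 and 65.4 in BAT and 624 and 131 in eWAT (adjusted p = 0.115). At an unadjusted p below 0.05 there were 5 adipocyte, 1 cell cycle, 6 contractile, 1 interferon-induced, 7 immediate early and 2 endothelial genes, and DESeq2 called 1, 0, 2, 0, 1 and 0. Without BAT replicate 2 edgeR called 10 contractile genes, and without BAT replicate 1 it called 5 endothelial and 4 immediate early genes. A difference of these lists from the midpoint was therefore not detected here, which does not show that there was none.

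The place of a gene outside both depots recurred from replicate to replicate mainly where the distance was wide. Of 149 genes that lay above both depots by at least 1 log2 unit in replicate 1, 124 (83.2%) were above both in replicate 2, where 27.4% of all tested genes were. Of 72 that lay below by that much, 38 (52.8%) were below in replicate 2, where 24.7% of all genes were. Set in replicate 2 instead, 162 of 197 (82.2%) and 58 of 91 (63.7%) recurred. With no minimum distance, 46.1% of the genes above in replicate 1 and 35.8% of those below were in the same class in replicate 2. Genes near 0 in BAT and eWAT were tested only where both iWAT libraries had enough reads. For such genes recurrence above both depots is set by the filter on low counts. The shares over all tested genes are therefore not a fair base for the recurrence above. By the authors' deposited table, 238 genes were above and 55 below both depots at an adjusted p below 0.05. All 81 genes above and 10 of the 11 below called here were among them, in a table made from the same libraries. The exception was Adrb3, whose iWAT minus BAT difference in the authors' deposited table was -0.51 (adjusted p = 0.192). At the edge of the threshold, Serpinb6a, Cblb and Ldb2 were the last genes called (adjusted p from 0.0482 to 0.0494) and Lepre1, Ddit4 and Dapk1 the first not called (0.0501 to 0.0504).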

How the data were processed

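RNA of 6 adipocyte cultures (TRIzol extraction, Ribo-Zero depletion, TruSeq libraries, per the labels' protocols) was sequenced. STAR and the mouse build mm9 are named in the submitters' processing notes. Versions, the counting program and strandedness were not given in the sources used here. Whole-number counts per RefSeq gene were deposited by the authors, per the file headers, for 20295 genes, from 2889038 to 4807449 per library. A separate table deposited by the authors holds log2 CPM and log2 fold changes with p-values, and likelihood ratio scores per the file headers, and was used for 1 comparison of call lists.

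After the edgeR filter on low counts (filterByExpr), 11732 genes were tested and 8563, of which 2596 had no reads, were left out. Tested genes held from 99.73% to 99.81% of reads. In edgeR 4.0.16 (R 4.3.3, limma 3.58.1) with TMM factors, 1 quasi-likelihood fit of all 6 libraries held depot and replicate letter (residual df 2, prior df 5.35). Its contrasts were iWAT minus the midpoint, iWAT minus BAT, iWAT minus eWAT and BAT minus eWAT, each with Benjamini-Hochberg adjustment over all tested genes at 0.05. Standard errors are the log2 difference over the square root of F. The letters were treated as pairs since, over genes, deviations of same-lettered libraries from their depot means correlated at 0.412 (BAT and eWAT), 0.448 (BAT and iWAT) and 0.556 (eWAT and iWAT). With 2 replicates a depot, the sign of these correlations rests on 1 contrast of letters, and the labels do not say what a letter marks.

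Genes were named by rule: the 4 markers, up to 12 per direction by distance to the nearer depot, with a mean of at least 5 CPM and both iWAT libraries outside the rest, 5 per end of the axis, and up to 4 per gene list by p. Members, lists and the other genes named were chosen with earlier results of these data known. Ratios where a depot had 3 reads or fewer use an exact 95% binomial interval, and a depot at 0 is set to 3 reads. The script was tested on simulated data. The 12 alternatives included DESeq2 1.42.0, limma voom, no replicate block and each library left out. Genes of multigene families or overlapping genes may share reads. Single values of some list members are not reported here. Figures used matplotlib 3.10.9.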

Additional observations from a re-analysis of the deposited data

How the results depend on the processing

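The planned analysis called 245 genes higher and 49 lower than the midpoint, 81 above and 11 below both depots, 2274 on the axis with iWAT between, and 53 of these also off the midpoint. Without the replicate block these counts were 33, 2, 0, 0, 662 and 3. DESeq2 gave 76 lower and 6 below both. With no filter on low counts 675 were higher, 248 lower, 216 above, 39 below and 200 between and off the midpoint, and the edgeR likelihood ratio test gave 576, 255, 176, 48 and 162. With 1 library left out, an arm has a lone sample, assumed to vary like the other groups. The counts then ran from 159 to 724 higher, 25 to 309 lower, 55 to 230 above, 3 to 41 below, 939 to 2560 between and 25 to 267 also off the midpoint. The share of calls that were higher was 83.3%, and 94.3% without the block, 73.1% with no filter, 69.3% by the likelihood ratio test, 70.1% without BAT replicate 1 and 71.5% without BAT replicate 2. Under the planned analysis and all 12 alternatives, 31 of the 245 genes higher and 2 of the 49 lower were called against the midpoint in their direction. Among the genes named by rule or picked for mention, values that changed sign belonged to genes not called. Sign changes were not examined for the other genes. Cd22 (-0.30) was 1.30 without BAT replicate 1, 0.14 without eWAT replicate 2 and 0.11 without iWAT replicate 2, in a range from -0.89 to 1.30 over the libraries left out. Myh8 (1.02) was -0.52 without BAT replicate 2 and -1.90 without iWAT replicate 2 (range -1.90 to 2.95), and Des (-0.67) was 0.11 without iWAT replicate 1 (range -1.47 to 0.11). The cause of these changes was not tested. Depth limits genes under 0.634 to 1.15 CPM.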

Other observations

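A few members of other lists were off the midpoint. Beside the counts below, 2.09% of all tested genes were called higher and 0.418% lower, and 0.69% were above both depots. Abcc9, a subunit of potassium channels that marks pericytes, was above both depots with 26.7 and 36.2 CPM in iWAT, 6.97 and 17.2 in BAT and 7.22 and 13.4 in eWAT (1.57 ± 0.22, adjusted p = 0.0136 by the edgeR quasi-likelihood test with Benjamini-Hochberg adjustment), the 1 of 12 pericyte and smooth muscle markers called. Its call was lost without iWAT replicate 1 and without the block. Elovl6, which lengthens fatty acids, had 223 and 199.6 CPM in iWAT, 173 and 176 in BAT and 98.8 and 78.8 in eWAT (0.76 ± 0.12, adjusted p = 0.022), the 1 called of 29 tested genes of fatty acid and cholesterol synthesis, and lost the call without eWAT replicate 2, either iWAT replicate or the block. Of 41 tested axon guidance genes, Epha3, an ephrin receptor, was higher with 27.7 and 24.6 CPM in iWAT, 16.5 and 6.50 in BAT and 1.63 and 4.84 in eWAT (2.10 ± 0.40, adjusted p = 0.0411), and Unc5b, a netrin receptor, lower with 51.96 and 15.6 CPM in iWAT, 75.4 and 26.4 in BAT and 109 and 31.6 in eWAT (-0.83 ± 0.14, adjusted p = 0.0277). Both lost the call without either iWAT replicate and without the block. Among genes chosen after their values were seen, Gas6, a ligand of TAM receptors, had 461 and 703 CPM in iWAT, 162 and 187 in BAT and 266 and 339.9 in eWAT (1.32 ± 0.13, adjusted p = 0.00361, or 0.0906 without the block). Reck, an inhibitor of matrix metalloproteinases, had 33.4 and 29.4 CPM in iWAT, 9.72 and 8.79 in BAT and 14.4 and 9.95 in eWAT (1.57 ± 0.19, adjusted p = 0.00741, or 0.0686 without the block). Col5a3, a collagen V chain, had 349.5 and 412 CPM in iWAT, 149 and 199.98 in BAT and 111 and 106 in eWAT (1.47 ± 0.13, adjusted p = 0.00282) and passed under all 12 alternatives. In Gas6, Reck and Col5a3 both iWAT libraries lay above the other 4.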
